A study of Mus musculus with 16 samples.

Results

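Basement membranes are the sheets of matrix that underlie epithelia and surround vessels, and 10 genes that encode the main structural proteins of these sheets in the kidney were followed here. They are the collagen IV chains Col4a1, Col4a2, Col4a3, Col4a4, Col4a5 and Col4a6, the laminin chains Lama5, Lamb2 and Lamc1, and the proteoglycan gene Agrn. The members were chosen by gene symbol, with earlier results of these data known. Because of that choice, the shares over all genes given below are a scale and not a test. Each member matched a single row of the count table, so that 10 of 57186 genes are described. All 10 were among the 25408 genes with at least 100 counts over all libraries, which were the genes tested.

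RNA was sequenced from the kidneys of 16 male mice on a C57BL/6J background, with 4 mice in each of 4 groups. All mice, controls included, were Elmo1H/H, a genotype that raises expression of Elmo1, a gene of cell motility and engulfment, so the series holds no mice with the usual Elmo1 level. Diabetes in the diabetic groups came from Ins2 Akita/+, a dominant insulin mutation that damages beta cells. ND_C were non-diabetic and untreated, ND_B12 non-diabetic and given vitamin B12, D_C diabetic and untreated, and D_B12 diabetic and given vitamin B12. The dose was 10 mg/kg per day in drinking water, begun when mice were 8 weeks old. The labels give 16 weeks of treatment, whereas the methods give 8 weeks and collection of the kidneys at 16 weeks of age, after a short fast. Whole kidney RNA was measured, so a change in RNA per cell cannot be told apart from a change in the number of cells that carry it.

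Collagen IV chains assemble in threes. The α1 and α2 chains form the network found in nearly all basement membranes and, in the glomerulus, in the mesangial matrix and on the endothelial side. The α3, α4 and α5 chains form the network of the mature glomerular basement membrane, where podocytes make them, and of some tubules, and loss of any of these chains causes Alport syndrome. The α5 and α6 chains combine in Bowman's capsule and in parts of the tubule. Laminin-521, made of the Lama5, Lamb2 and Lamc1 chains, is the laminin of the mature glomerular basement membrane, and agrin is a heparan sulfate proteoglycan of that membrane. Thickening of the glomerular and tubular basement membranes is a known lesion of the diabetic kidney.

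The labels and the grouping used in the paper did not match for every library. Group means are listed with the paper, and 175 genes were used to find which libraries those means were taken from, over all 1820 possible sets of 4. The listed ND_C corresponded to ND_C 1, 2 and 4 and ND_B12 1, and the listed ND_B12 to ND_C 3, ND_B12 2 and 3 and D_C 1. The listed D_C corresponded to the 4 libraries labelled D_B12, and the listed D_B12 to ND_B12 4 and D_C 2, 3 and 4. Diabetes status was the same by both for 14 libraries and differed for ND_B12 4 and D_C 1. B12 status differed for 10 libraries, including all 8 labelled as diabetic. Groups and directions below are those of the labels, and which libraries of diabetic mice had received B12 cannot be told apart from these sources. Diabetes results are given with and without ND_B12 4 and D_C 1, a step that bears on diabetes status and not on B12 status.

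Totals ran from 65271308 to 91771136 estimated counts per library. Those of D_C, 85751266 to 91771136, were all above those of ND_C, 72867148 to 84053153. The library names hold 10 dates, which may be of any step. None of these holds libraries of both D_C and ND_C, of both D_B12 and ND_B12 or of both D_B12 and D_C, and 1 holds ND_B12 2, 3 and 4 and D_C 1, so date and group cannot be told apart. Normalized counts (divided by size factors from the median of ratios) are given for replicates 1 to 4 of a group in that order. Log2 fold changes with SE (the standard error) and p-values adjusted by Benjamini-Hochberg over all genes tested come from edgeR's quasi-likelihood test fitted on all 16 libraries, and a gene is called where the adjusted p-value is below 0.05. All tests were two-sided, and nothing beyond the labels says that the 4 libraries of a group come from separate litters or days.

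Per kilobase of exon, Col4a1 was the most abundant of the 10 genes, with 3140 ± 527 normalized counts per kilobase (mean ± SD over 16 libraries). Col4a3 followed with 2520 ± 330, Col4a2 with 2180 ± 369 and Col4a4 with 2040 ± 225. Below these 4 chains came Agrn with 1130 ± 110, Lama5 with 990 ± 190 and Lamb2 with 681 ± 105 normalized counts per kilobase. Col4a5 had 406 ± 62.8 and Lamc1 385 ± 52.8. Col4a6 was the lowest, with 29.1 ± 13.1 normalized counts per kilobase and a coefficient of variation of 45.1%. The 2 gaps in this order, between Col4a4 and Agrn and between Lamc1 and Col4a6, separated all libraries of one gene from all libraries of the next, and every other pair of neighbours overlapped. The order of the 10 genes was the same when each transcript was divided by its own length. All these means are levels per length, and the comparison between genes carries no test.

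**Figure D1:**
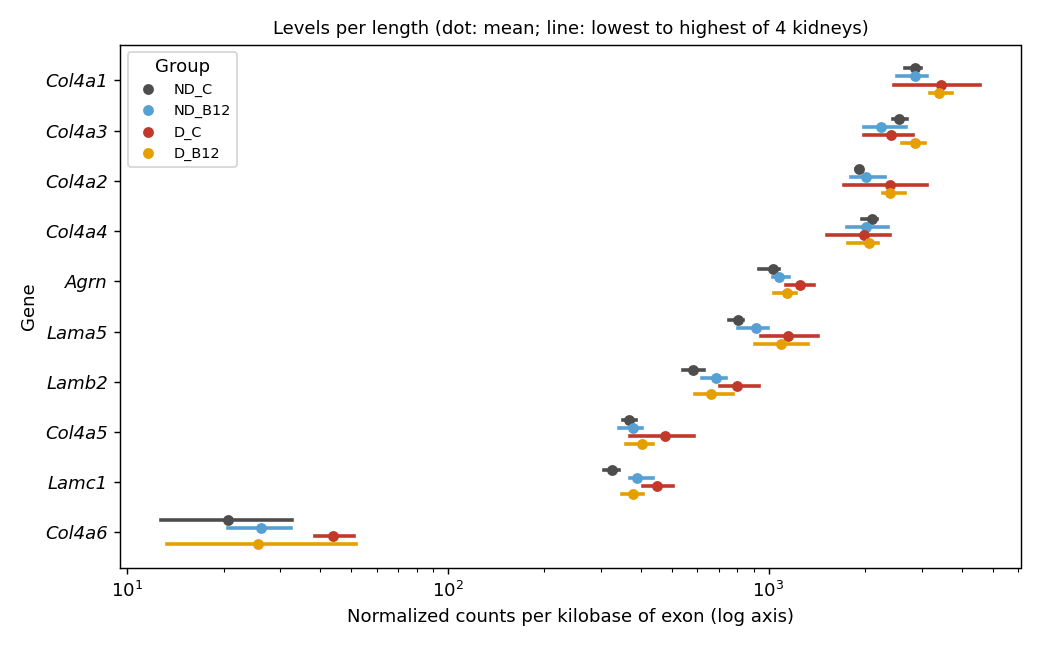
Normalized counts per kilobase of exon (x axis, log scale) for the 10 genes (y axis), with a dot at the mean and a line from the lowest to the highest of 4 kidneys in each group. Col4a1 to Col4a4 lie at the top, Agrn to Lamc1 below them, and Col4a6 is apart at a mean of 29.1 over all 16 libraries.

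The 3 laminin chains were called higher in D_C than in ND_C by edgeR, and Agrn was not called by edgeR. The 3 chains of laminin-521 each rose by about the same amount, with folds of 1.43 for Lama5, 1.37 for Lamb2 and 1.38 for Lamc1. Of the 10 members 3 were called higher and 0 lower, where 0.937% of all genes tested were called higher, 0.728% lower and 1.66% in either direction. Of the members 7 had an unadjusted p-value below 0.05 and were higher, where 9.31% of all genes were. The median log2 fold change was 0.34 over the members and -0.0034 over all genes tested.

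Lama5 encodes the laminin α5 chain and lies on chromosome 2, at chr2:179818166-179867712 on the minus strand (GRCm39, as all positions here). Its normalized count was 9328, 9342, 8605 and 9547 in ND_C and 12148, 16388, 13141 and 10828 in D_C. The D_C libraries were all above the ND_C libraries, with D_C 2 the highest of the 16. The log2 fold change was 0.51 ± 0.12 (SE, adjusted p = 0.0469 by edgeR, n = 4 each), and 85 bases of its exons are shared with Adrm1 on the other strand.

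Lamb2 encodes the laminin β2 chain, whose loss in people causes a congenital nephrotic syndrome with eye defects, and lies at chr9:108356935-108367729 on the plus strand. Its normalized count was 3839, 3291, 3367 and 3652 in ND_C and 4295, 4312, 5690 and 5101 in D_C. The groups did not overlap, and D_C 3 was the highest of the 16 libraries. The log2 fold change was 0.46 ± 0.10 (SE, adjusted p = 0.0414 by edgeR, n = 4 each).

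Lamc1 encodes the laminin γ1 chain, shared by most laminins, and lies at chr1:153094597-153208774 on the minus strand. Its normalized count was 3888, 3519, 3490 and 3838 in ND_C and 4595, 5088, 5713 and 4947 in D_C. It had the smallest standard error of the 3 laminin chains, with a log2 fold change of 0.47 ± 0.076 (SE, adjusted p = 0.0227 by edgeR, n = 4 each), and ranked 17 of the 25408 genes tested by p-value.

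Since the 3 laminin chains were called together, the 250 bases before the annotated start of each gene are shown (reference genome GRCm39, gene starts of GENCODE vM39, 5′ to 3′ on the strand of the gene). Capitals mark the GC box letters GGGCGG or their reverse complement CCGCCC. The windows are chr2:179867713-179867962 for Lama5, chr9:108356685-108356934 for Lamb2 and chr1:153208775-153209024 for Lamc1, and end at the base before the annotated start.
Lama5: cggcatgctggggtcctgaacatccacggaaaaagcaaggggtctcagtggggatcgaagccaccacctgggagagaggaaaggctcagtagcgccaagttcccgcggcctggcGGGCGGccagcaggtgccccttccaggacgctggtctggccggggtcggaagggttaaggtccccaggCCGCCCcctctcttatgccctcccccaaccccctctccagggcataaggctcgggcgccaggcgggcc
Lamb2: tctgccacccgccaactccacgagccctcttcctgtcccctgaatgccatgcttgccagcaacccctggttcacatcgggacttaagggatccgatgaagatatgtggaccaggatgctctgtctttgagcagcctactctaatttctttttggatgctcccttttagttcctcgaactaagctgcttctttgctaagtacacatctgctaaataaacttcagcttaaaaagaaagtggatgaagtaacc
Lamc1: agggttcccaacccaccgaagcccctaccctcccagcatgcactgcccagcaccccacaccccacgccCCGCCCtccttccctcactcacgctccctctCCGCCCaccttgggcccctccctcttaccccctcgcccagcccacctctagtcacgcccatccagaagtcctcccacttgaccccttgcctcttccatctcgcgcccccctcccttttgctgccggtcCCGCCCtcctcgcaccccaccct
The letters occur 2 times before Lama5, 3 times before Lamc1 and 0 times before Lamb2, and are found on either strand in 29.9% of the 21770 windows of the same length before protein-coding genes. The GC content was 68.0% before Lama5, 68.8% before Lamc1 and 47.2% before Lamb2. None of the 3 windows holds the letters TATAAA on either strand, which 12.5% of all windows hold. The same was true of the E-box letters CACGTG, held by 5.69% of all windows, and of the letters CCAAT, held by 36.1%. A match of letters is a description of these windows and not a binding site, and no motif searched was found in all 3 windows.

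Agrn lies at chr4:156249740-156282014 on the minus strand. Its normalized count was 10322, 10052, 8945 and 10426 in ND_C and 10857, 11825, 13396 and 12065 in D_C. The groups did not overlap, but the log2 fold change of 0.28 ± 0.072 (SE, n = 4 each) did not pass the threshold (adjusted p = 0.0591 by edgeR). DESeq2 called Agrn in this comparison (adjusted p = 0.00981).

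Among the collagen IV genes, D_C had higher mean counts than ND_C for Col4a1, Col4a2, Col4a5 and Col4a6 and lower mean counts for Col4a3 and Col4a4, and edgeR called 0 of these 6 genes. DESeq2 called Col4a5 (adjusted p = 0.0186) and Col4a6 (adjusted p = 0.0266) among the 1603 genes it called in this comparison. Col4a1 and Col4a2 start head to head on chromosome 8, at chr8:11248423-11362826 on the minus strand and chr8:11362471-11499287 on the plus strand, and share 311 exon bases. Col4a1 had normalized counts of 22223, 20874, 19949 and 22332 in ND_C and 18376, 27402, 33941 and 23258 in D_C. D_C 1 was the lowest of these 8 libraries and D_C 3 the highest of all 16, so the groups overlapped. The log2 fold change was 0.27 ± 0.14 (SE, adjusted p = 0.303 by edgeR, n = 4 each). Col4a2 followed the same order of libraries in D_C, with 12313, 17765, 22481 and 15999 against 13957, 13723, 13462 and 14042 in ND_C. The fitted difference was 0.31 ± 0.13 on the log2 scale (SE, adjusted p = 0.216 by edgeR, n = 4 each). Again D_C 1 was below the range of ND_C and the other 3 D_C libraries were above it.

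Col4a3 and Col4a4 also start head to head, at chr1:82564642-82699780 on the plus strand and chr1:82426144-82564800 on the minus strand, and share 159 exon bases. Col4a3 had normalized counts of 26863, 24278, 26233 and 24785 in ND_C and 19882, 23559, 28068 and 24468 in D_C, with D_C values on both sides of the ND_C range. Between the groups the log2 fold change was -0.090 ± 0.10 (SE, adjusted p = 0.703 by edgeR, n = 4 each), with a 95% interval from -0.31 to 0.13. Col4a4 had normalized counts of 24613, 23949, 24876 and 22334 in ND_C and 22374, 17419, 27415 and 23650 in D_C. Between the groups the log2 fold change was -0.076 ± 0.12 (SE, adjusted p = 0.79 by edgeR, n = 4 each), with a 95% interval from -0.32 to 0.17. Without D_C 2, the lowest Col4a4 library of the 16, the log2 fold change of Col4a4 was 0.028 (adjusted p = 0.924). Col4a3 also shares 843 exon bases with the antisense lncRNA C430014B12Rik, and strand-specific counting was not stated.

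Col4a5 and Col4a6 lie on the X chromosome, at chrX:140258354-140472231 on the plus strand and chrX:139948399-140257072 on the minus strand, with 1281 bases between their starts. Col4a5 had normalized counts of 3615, 3274, 3381 and 3454 in ND_C and 3447, 4418, 5477 and 4458 in D_C, with D_C 1 inside the range of ND_C and the other 3 above it. Col4a5 had a log2 fold change of 0.38 ± 0.11 (SE, adjusted p = 0.0758 by edgeR, n = 4 each). Col4a6 had normalized counts of 261, 102, 145 and 152 in ND_C and 366, 406, 307 and 326 in D_C. The groups did not overlap, but at this low level the log2 fold change of 1.09 ± 0.36 (SE, n = 4 each) was not called (adjusted p = 0.114 by edgeR). In all, the normalized counts of D_C lay entirely above those of ND_C for 5 members, Lama5, Lamb2, Lamc1, Agrn and Col4a6, where this held for 4.86% of all genes tested.

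**Figure D2:**
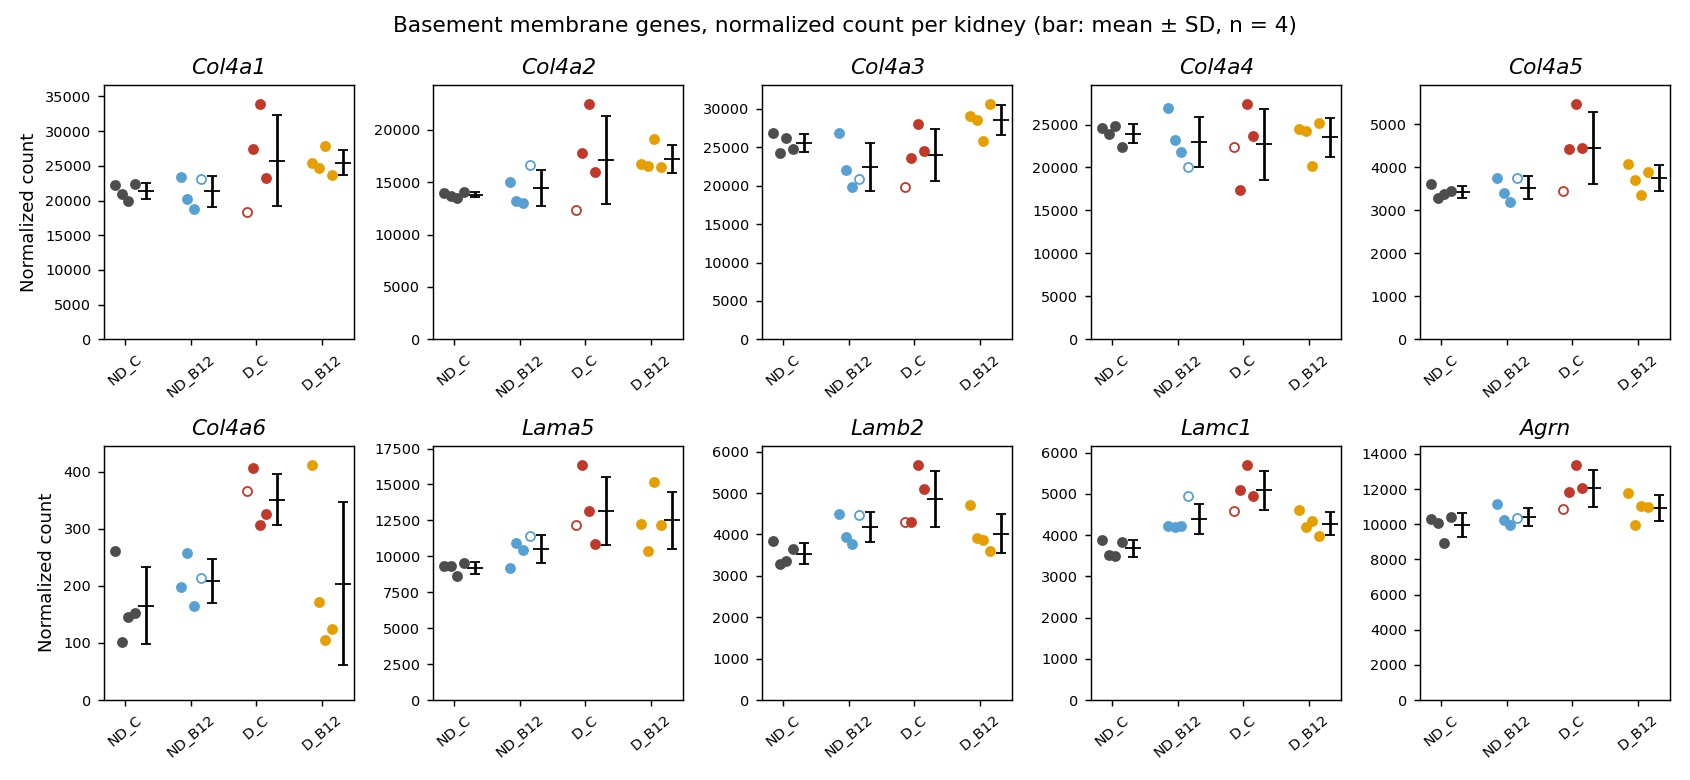
Normalized count (y axis, from 0) of each gene in each of the 16 kidneys, by labelled group (x axis), with replicates 1 to 4 from left to right and the mean ± SD at the right of each group. Open circles are ND_B12 4 and D_C 1, whose diabetes status differs between the labels and the listed means, and the D_C values of Lama5, Lamb2, Lamc1, Agrn and Col4a6 lie above all ND_C values.

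The number of members called depended on single libraries. Without ND_B12 4 and D_C 1, 7 of the 10 members were called higher in D_C, where 4.68% of all genes tested were called higher and 8.57% in either direction. These were Col4a1, with a log2 fold change of 0.40 (adjusted p = 0.0354), Col4a2 with 0.44 (0.0149), Col4a5 with 0.48 (0.00609), Lama5 with 0.55 (0.0224), Lamb2 with 0.51 (0.0116), Lamc1 with 0.51 (0.00127) and Agrn with 0.32 (0.0163), all by edgeR. Col4a3 and Col4a4 stayed near 0 without these libraries, at -0.012 (adjusted p = 0.956) and -0.071 (adjusted p = 0.78). The D_C libraries left, D_C 2, 3 and 4, all belong to the listed D_B12, so this fit does not settle B12 status. Leaving out D_C 1 alone gave the same number, 7, among 1552 genes called, against 423 with all libraries. Leaving out ND_C 2, ND_C 3 or D_C 4 gave 0 member calls, where 0, 2 and 0 of all genes were called. Leaving out ND_C 1, ND_C 4, D_C 2 or D_C 3 left Lamc1 as the one member called, among 71, 366, 46 and 67 genes. With the date in the library name as a covariate 0 of the 10 members were called, and the adjusted p-value of Lamc1 was 0.123.

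Marker genes of the cells that make these proteins are given beside them. The summed level of 10 endothelial markers was 545.1 to 585.3 CPM in ND_C and 638 to 787.5 CPM in D_C, without overlap, while it was 606.6 to 718 CPM in ND_B12 and 591.3 to 710.3 CPM in D_B12. All 10 endothelial markers had an unadjusted p-value below 0.05 and were higher in D_C, where 9.31% of all genes tested were. Of these markers 3 were called, namely Egfl7 (log2 fold change 0.39), Eng (0.47) and Flt1 (0.32), where 0.937% of all genes were called higher. The summed level of 7 mesangial and pericyte markers was 164.3 to 192 CPM in ND_C and 202.8 to 237.2 CPM in D_C. It was 170.7 to 231.9 CPM in ND_B12 and 183.3 to 239.5 CPM in D_B12. Between D_C and ND_C, 4 of 7 had an unadjusted p-value below 0.05 and 0 were called. The 12 podocyte markers summed to 405.5 to 443.5 CPM in ND_C and 419.2 to 453.8 CPM in D_C, and 0 were called. Their sum was 420.7 to 513.8 CPM in ND_B12 and 430.5 to 511.2 CPM in D_B12. Without ND_B12 4 and D_C 1, 8 of the 10 endothelial markers were called higher in D_C than in ND_C. In the same fit 2 of 7 mesangial and pericyte markers were called higher, and of 12 podocyte markers 1 was called higher and 2 lower. Of all genes tested 4.68% were called higher in that fit and 8.57% in either direction. None of these lists has a marker at 0 in any group. The part of cell numbers, of total counts and of date in the differences of the members was not tested.

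Between D_B12 and ND_B12, Col4a3 had the smallest p-value of the members. Of the 10 members 0 were called, where 0.823% of all genes were called in either direction and 0.26% higher. Only Col4a3 had an unadjusted p-value below 0.05, where 7.79% of all genes had one and were higher. DESeq2 called 1 member, Col4a3, among 1146 genes. The normalized count of Col4a3 was 26860, 22071, 19783 and 20843 in ND_B12 and 29088, 28510, 25883 and 30675 in D_B12, where ND_B12 1 lay within the range of D_B12. Col4a3 had a log2 fold change of 0.35 ± 0.10 (SE, adjusted p = 0.10 by edgeR, n = 4 each). Col4a1 was the only member without overlap, with 23355, 20178, 18733 and 23098 in ND_B12 and 25455, 24744, 27891 and 23747 in D_B12, where 5.1% of all genes lay entirely higher. The log2 fold change of 0.25 ± 0.14 (SE, n = 4 each) was not called (adjusted p = 0.363 by edgeR). Lama5 had a log2 fold change of 0.25 ± 0.12 (SE, adjusted p = 0.307 by edgeR, n = 4 each), and those of Lamb2 and Lamc1 were -0.057 and -0.042. That of Lamc1 was 0.025 without ND_B12 4 and D_C 1. Without ND_B12 4 and D_C 1, 0 members were called, where 2.8% of all genes were.

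Averaged over both treatments, 2 members were higher in diabetic kidneys, where 0.862% of all genes were called higher and 3.02% in either direction. At an unadjusted p-value below 0.05, 7 were higher, where 8.84% of all genes were. Lama5 had an average log2 fold change of 0.38 ± 0.086 (SE, adjusted p = 0.0294 by edgeR, n = 8 each) and Lamc1 of 0.21 ± 0.054 (SE, adjusted p = 0.0447 by edgeR, n = 8 each). The other laminin-521 chain, Lamb2, had 0.20 (adjusted p = 0.136) and Agrn 0.17 (adjusted p = 0.0765). Of the collagen IV genes, Col4a2 had 0.28 (adjusted p = 0.11), Col4a1 0.26 (0.145), Col4a5 0.23 (0.0993), Col4a6 0.53 (0.264), Col4a3 0.13 (0.348) and Col4a4 -0.023 (0.918), and none was called by edgeR. DESeq2, which called 1832 genes here, called Col4a2 (adjusted p = 0.0418), Col4a5 (0.043) and Agrn (0.0244) besides Lama5 and Lamc1. Without ND_B12 4 and D_C 1, 7 members were called higher, where 4.86% of all genes were called higher and 10.2% in either direction. They were the same 7 as between the libraries labelled D_C and ND_C. Among fits that left out 1 library, 6 members were called without D_C 1, among 1700 genes, and 2 without ND_C 1, ND_B12 4 or D_B12 4, among 526, 1376 and 675 genes. The count was 1, Lama5, without ND_C 4, D_C 2, D_C 3, D_C 4 or D_B12 2, among 386 to 619 genes. It was 0 without ND_C 2, ND_C 3, ND_B12 1, ND_B12 2, ND_B12 3, D_B12 1 or D_B12 3, where 235 to 322 genes were called.

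**Figure D3:**
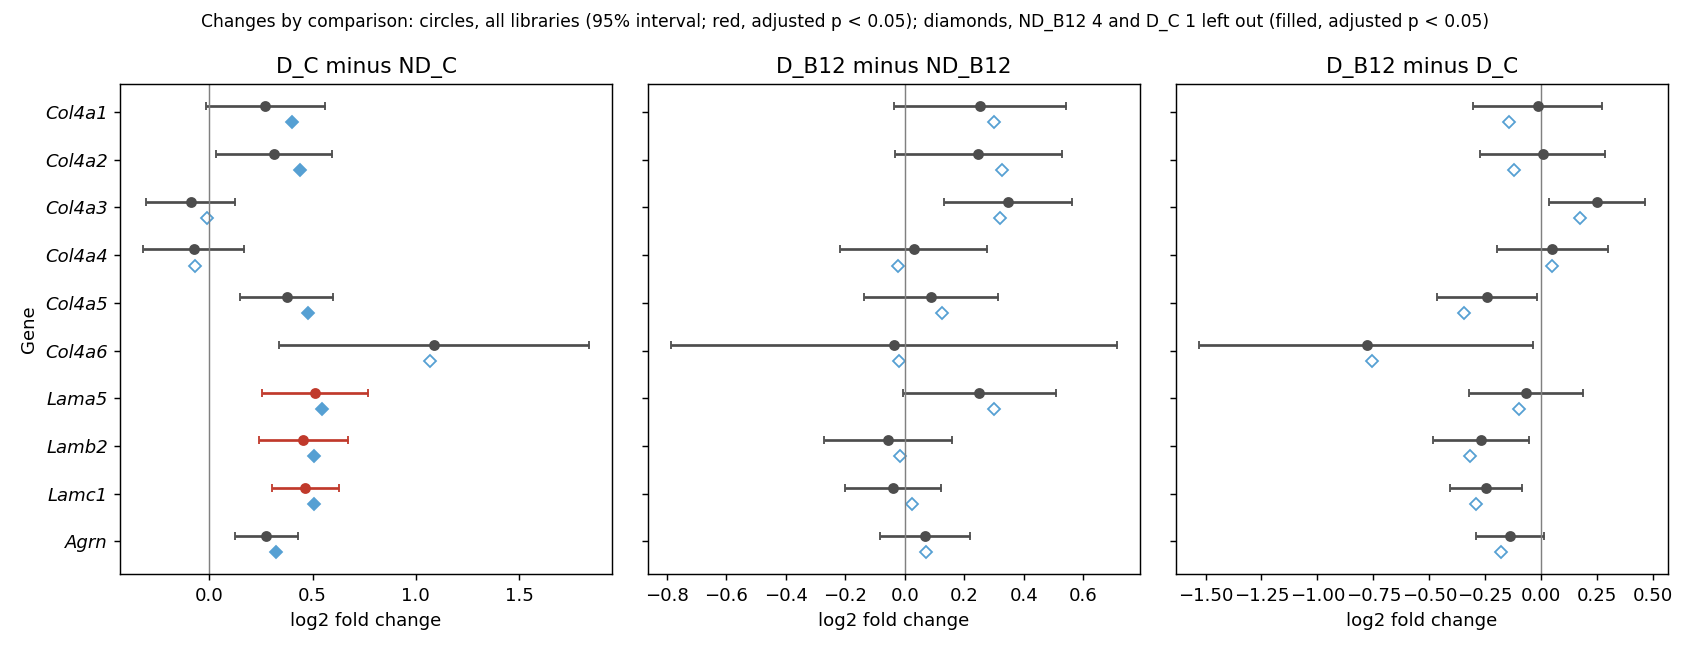
Log2 fold change (x axis) of each gene (y axis) between the groups named above each panel. Circles with 95% intervals are from all libraries, red where the adjusted p-value is below 0.05 (Lama5, Lamb2 and Lamc1 in the first panel only), and diamonds are from the fit without ND_B12 4 and D_C 1, filled where the adjusted p-value is below 0.05 (7 genes in the first panel only).

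The libraries labelled D_B12 were compared with those labelled D_C. By the listed means the B12 status of all these 8 libraries is the opposite of the label. The comparison therefore does not give the direction of a B12 effect in diabetic kidneys, and signs below are those of the labels. None of the 10 members was called, and neither was any other gene tested (0% of 25408), although 3468 genes (13.6%) had an unadjusted p-value below 0.05. DESeq2 called 681 genes and 0 members. At an unadjusted p-value below 0.05, 4 members were lower in D_B12, where 7.21% of all genes were, and 1 was higher, where 6.44% were. Lamc1 had normalized counts of 4610, 4199, 4346 and 3967 in D_B12 against 4595, 5088, 5713 and 4947 in D_C, so only D_B12 1 and D_C 1 overlapped. For Lamc1 the log2 fold change was -0.25 ± 0.076 (SE, adjusted p = 0.175 by edgeR, n = 4 each). Lamb2 had 4711, 3923, 3856 and 3605 in D_B12, where D_B12 1 lay within the range of D_C. For Lamb2 the log2 fold change was -0.27 ± 0.10 (SE, adjusted p = 0.256 by edgeR, n = 4 each).

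Col4a5 had normalized counts of 4071, 3714, 3359 and 3883 in D_B12, and its log2 fold change from D_C was -0.24 ± 0.11 (SE, adjusted p = 0.323 by edgeR, n = 4 each). Col4a6 had 412, 172, 106 and 125 in D_B12, where D_B12 1 was the highest of the 16 libraries and the other 3 lay below all D_C libraries. For Col4a6 the log2 fold change was -0.78 ± 0.35 (SE, adjusted p = 0.343 by edgeR, n = 4 each). Of the 3 members with a log2 fold change above 0, Col4a3 was the one with an unadjusted p-value below 0.05, with 0.25 ± 0.10 (SE, adjusted p = 0.285 by edgeR, n = 4 each). For Col4a1 and Col4a2 the 2 groups had nearly the same mean, 25459 and 25744 for Col4a1 and 17200 and 17140 for Col4a2. The 95% intervals of their log2 differences, from -0.30 to 0.27 and from -0.28 to 0.29, do not leave out changes of that size. Both differences changed sign with single libraries left out, and that of Col4a2 was -0.12 without ND_B12 4 and D_C 1.

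In non-diabetic kidneys 0 members and 0 genes were called between ND_B12 and ND_C by edgeR, with 1937 genes (7.62%) at an unadjusted p-value below 0.05, while DESeq2 called 6 genes and 0 members. Lamc1 had normalized counts of 4231, 4197, 4221 and 4939 in ND_B12, all above its ND_C libraries, where 2.65% of all genes lay entirely higher. Its log2 fold change was 0.26 ± 0.076 (SE, adjusted p = 0.57 by edgeR, n = 4 each). Lamb2 had 4501, 3951, 3782 and 4474 in ND_B12, and 3 of these lay above all ND_C libraries. Its log2 fold change was 0.24 ± 0.10 (SE, adjusted p = 0.637 by edgeR, n = 4 each).

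The difference between the diabetes effects in the 2 treatments was tested by the interaction. No member and no other gene was called by edgeR (0% of 25408), with 4093 genes (16.1%) at an unadjusted p-value below 0.05, and DESeq2 called 923 genes. The interaction of Lamc1 was -0.51 ± 0.11 on the log2 scale (SE, adjusted p = 0.0585 by edgeR, n = 4 in each of 4 groups), and that of Lamb2 was -0.51 ± 0.14 (SE, adjusted p = 0.110 by edgeR). Col4a3 had 0.44 ± 0.14 (SE, adjusted p = 0.154) and Col4a6 -1.13 ± 0.50 (SE, adjusted p = 0.280), both by edgeR. The interaction of Lamc1 was called by DESeq2 (adjusted p = 0.00193) and that of Lamb2 too (adjusted p = 0.0285). By edgeR it was called for Lamc1 without ND_B12 4 and D_C 1 (adjusted p = 0.0437, with 0.35% of all genes called), without D_C 1 alone (0.0344), without ND_B12 1 (0.0466) and with the date as a covariate (0.0445). Of the 10 endothelial markers, 9 had an interaction below 0 at an unadjusted p-value below 0.05 and 0 were called, with a median of -0.39. Of 8 distal and collecting duct genes 4 were below 0 and 1 above at that p-value, with a median of -0.47. Of 12 receptors for basement membranes 4 were below 0 and 1 above, with a median of -0.24. The 12 podocyte markers had a median of 0.083, with 1 below 0 and 0 above at that p-value. The part of these lists in the interaction of the laminin chains was not tested.

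The balance between chains was described as a ratio of counts per kilobase within each library, with no test. Col4a1 over Col4a2 was nearly constant, between 1.34 and 1.53 over the 16 libraries, with a geometric mean of 1.49 in ND_C, 1.44 in D_C and 1.42 in both ND_B12 and D_B12. Col4a3 over Col4a4 was 1.25, 1.16, 1.21 and 1.27 in ND_C and 1.36, 1.35, 1.47 and 1.40 in D_B12. In D_C it spread from 1.02 in D_C 1 to 1.55 in D_C 2, the lowest and the highest of the 16 libraries.

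Col4a3 over Col4a5 was 6.96, 6.95, 7.27 and 6.72 in ND_C and 5.40, 5.00, 4.80 and 5.14 in D_C, where each library was below each ND_C library. It was 6.70, 6.06, 5.80 and 5.22 in ND_B12 and 6.70, 7.19, 7.22 and 7.40 in D_B12. The ratio therefore lay at 4.8 to 5.4 in D_C and at 6.7 to 7.4 in D_B12, and the B12 status of all these 8 libraries differs between the labels and the listed means. The mean log2 ratio in D_C minus that in ND_C was -0.46, a difference in which the lengths of the genes cancel. Col4a3 over Col4a1 was also lower in D_C, at 0.619 to 0.81, than in ND_C, at 0.831 to 0.985. It overlapped D_C in ND_B12, at 0.676 to 0.861, and in D_B12, at 0.695 to 0.967. How often ratios of other gene pairs separate these groups is not given here. Col4a4 over Col4a5 did not separate the groups. It was 5.57, 5.98, 6.01 and 5.29 in ND_C and 5.31, 3.22, 4.09 and 4.34 in D_C. In ND_B12 it was 5.85, 5.56, 5.58 and 4.38, and in D_B12 4.92, 5.33, 4.91 and 5.29. The summed level of α3, α4 and α5 over that of α1 and α2 was 1.05 ± 0.068 (SD, n = 4) in ND_C and 0.859 ± 0.15 in D_C. With B12 it was 0.956 ± 0.12 for ND_B12 and 0.924 ± 0.13 for D_B12, and the 4 groups overlapped.

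**Figure D4:**
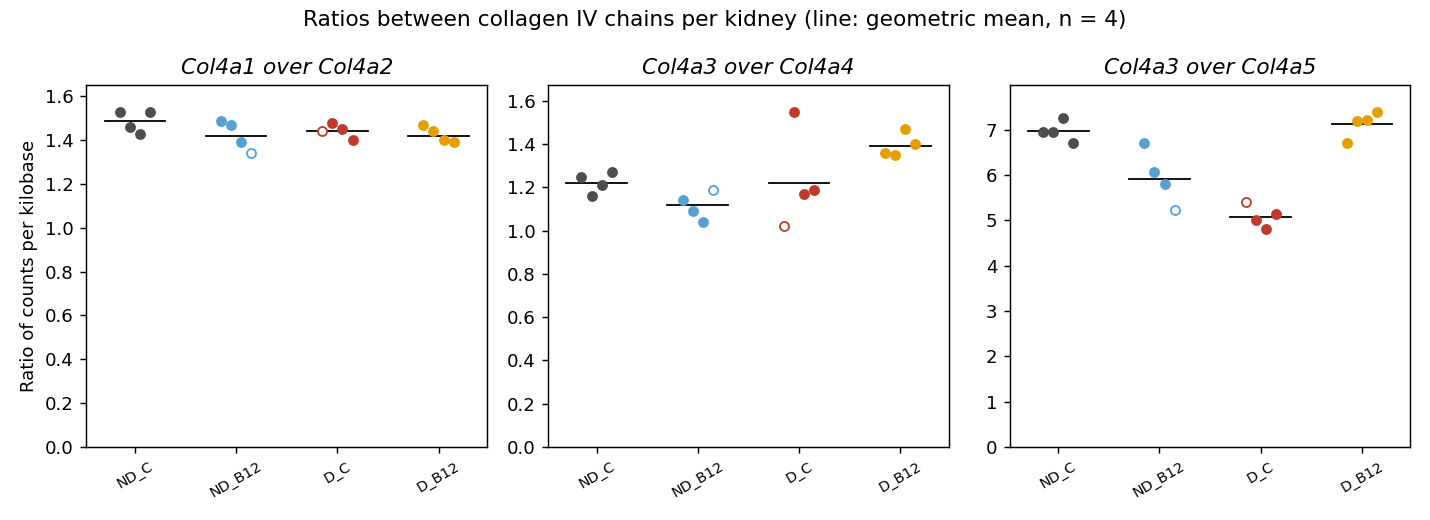
Ratio of counts per kilobase (y axis, from 0) between 2 collagen IV genes in each kidney, by labelled group (x axis), with the geometric mean as a line and ND_B12 4 and D_C 1 as open circles. Col4a1 over Col4a2 stays between 1.34 and 1.53, and Col4a3 over Col4a5 lies at 4.8 to 5.4 in D_C and at 6.7 to 7.4 in D_B12.

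Whether partner genes rose and fell together within groups was tested in 6 pairs, over 16 libraries, on log2 CPM minus the group mean and by permutation. Values were shuffled over all 16 libraries, although removing the group means leaves 12 degrees of freedom and the spread differed between groups. The coefficient of variation of Col4a1 was 25.6% in D_C and 5.35% in ND_C, so the permutation p-values may be too small. Col4a1 and Col4a2 had the highest correlation, with a Pearson r of 0.971 and a Spearman rho of 0.944 (both p = 1e-05, the smallest that the permutations can give, adjusted p = 6e-05 over the 6 pairs). Without D_C 1 and D_C 3, the 2 libraries farthest from the median, r was 0.894. Col4a3 and Col4a4 had r = 0.661 (permutation p = 0.00586, adjusted 0.0117) and rho = 0.841 (permutation p = 6e-05, adjusted 0.00018), with r = 0.721 without D_C 1 and ND_B12 1. Col4a5 and Col4a6 had r = 0.272 (permutation p = 0.296, adjusted 0.356) and rho = 0.282 (permutation p = 0.287, adjusted 0.345), and without D_C 1 and D_C 3 r was 0.657.

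Of the laminin pairs, Lamb2 and Lamc1 had r = 0.783 (permutation p = 0.00041, adjusted 0.00123) and rho = 0.785 (permutation p = 0.00046, adjusted 0.00092), with r = 0.655 without D_B12 1 and D_C 3. For Lama5 neither partner passed the threshold. With Lamc1 it had r = 0.368 (permutation p = 0.162, adjusted 0.243) and rho = 0.435 (permutation p = 0.0937, adjusted 0.141), and r was 0.478 without D_B12 3 and D_C 2. With Lamb2 it had r = -0.166 (permutation p = 0.54, adjusted 0.54) and rho = -0.038 (permutation p = 0.891, adjusted 0.891), and r was 0.093 without the same 2 libraries. No date holds 6 libraries, so no correlation within a date is given, and the head-to-head pairs share exon bases whose reads cannot be told apart without strand.

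**Figure D5:**
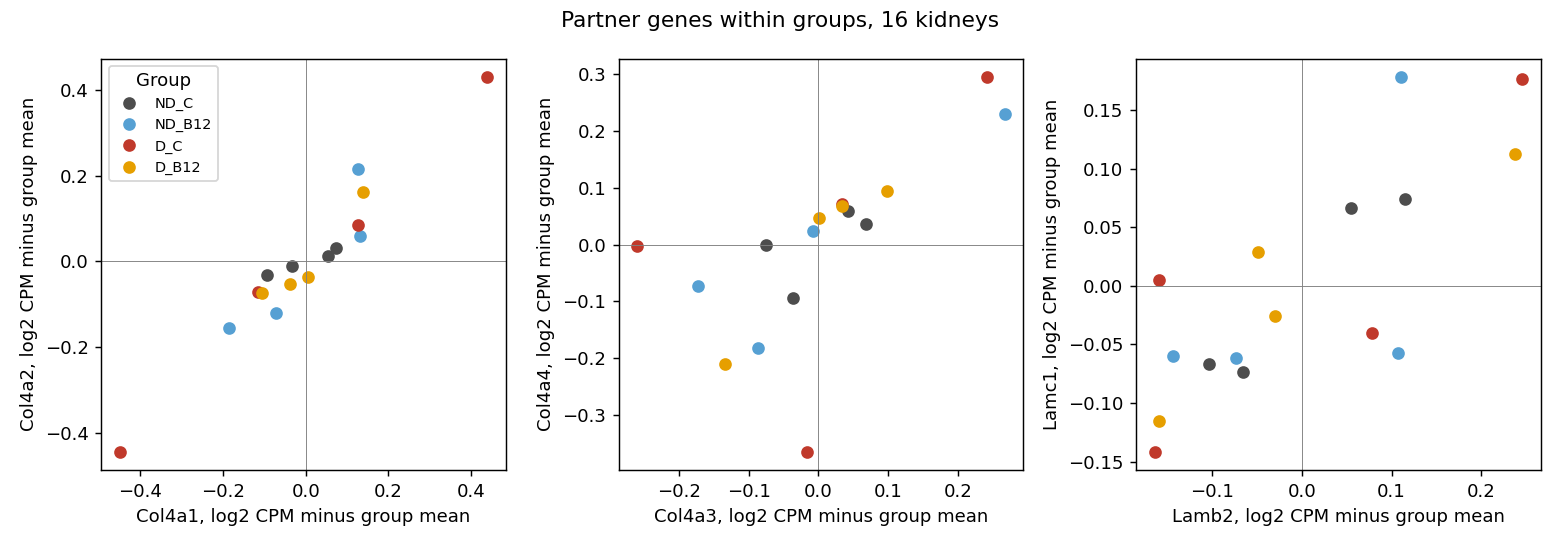
Log2 CPM minus the group mean of 1 gene (x axis) against its partner (y axis) in 16 kidneys, coloured by labelled group. Col4a1 and Col4a2 lie close to a line (r = 0.971), Lamb2 and Lamc1 less so (r = 0.783), and Col4a3 and Col4a4 spread more (r = 0.661).

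By the same measure, likeness to other genes was ranked over 15370 genes with a mean of at least 100 counts, as a description. The 5 genes most like Col4a1 outside the members were Phlpp1 (r = 0.938), Gm12070 (0.923), Trappc6a (0.921), Gm7868 (0.918) and Pgls (0.910), all below its own partner Col4a2. The 5 most like Col4a3 were Dnah12 (r = 0.930), Arhgef10l (0.861), Gfer (0.861), Ddit4l (0.856) and Zfp444 (0.856). All of these were above its head-to-head partner Col4a4 (r = 0.661) and above Col4a5 (0.833). Among the genes most like Agrn were Rec8 (r = 0.838), Ubr4 (0.834), Pnpla6 (0.828) and Phlpp1 (0.815).

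The other genes of the basement membrane were taken from lists. Of 17 other basement membrane components 1 was called higher and 1 lower between D_C and ND_C. Of all genes tested 0.937% were called higher in this comparison and 0.728% lower. Hspg2, which encodes perlecan, the heparan sulfate proteoglycan of most basement membranes, had 12572, 11197, 10308 and 10640 in ND_C and 13848, 16651, 21484 and 16834 in D_C. The groups did not overlap, and its log2 fold change was 0.62 ± 0.15 (SE, adjusted p = 0.0453 by edgeR, n = 4 each). Tinag, which encodes a glycoprotein of the tubular basement membrane, fell by 0.27 on the log2 scale (adjusted p = 0.0474 by edgeR). In the average effect Hspg2 (0.40, adjusted p = 0.0444), Frem1, a matrix protein of epithelial membranes (0.41, 0.0331), and Tinag (-0.21, 0.0249) were called by edgeR. Over all genes tested, 0.862% were called higher in that effect and 3.02% in either direction.

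Of 12 receptors for basement membranes, 7 had an unadjusted p-value below 0.05 and were higher in D_C, and 2 were called. At that p-value 9.31% of all genes tested were higher, and 0.937% were called higher. Bcam, a receptor for the laminin α5 chain, had normalized counts of 6555, 4760, 5252 and 5463 in ND_C and 8045, 9852, 7746 and 9838 in D_C, without overlap. Bcam rose by 0.69 ± 0.16 on the log2 scale (SE, adjusted p = 0.0440 by edgeR, n = 4 each). Itga3, the α chain of the laminin-binding integrin of podocytes and tubules, had 3124, 2992, 2815 and 3282 in ND_C and 3763, 4703, 3961 and 4091 in D_C. Itga3 rose by 0.44 ± 0.082 on the log2 scale (SE, adjusted p = 0.0300 by edgeR, n = 4 each), and in the average effect it was 0.24 (adjusted p = 0.0381). It was the only 1 of the 12 called in the average effect, where 0.862% of all genes were called higher.

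Of 13 genes of collagen modification and assembly 0 were called in untreated kidneys. At an unadjusted p-value below 0.05, 3 were higher, where 9.31% of all genes were. In the average effect 1 was called, Loxl2, a collagen crosslinking enzyme (0.38, adjusted p = 0.0378 by edgeR). Of all genes tested 0.862% were called higher in the average effect and 3.02% in either direction. Of 10 proteases and their inhibitors 0 were called in untreated kidneys, and in the average effect Timp3, a matrix-bound protease inhibitor, fell by 0.25 on the log2 scale (adjusted p = 0.0297 by edgeR). Of 10 regulators of matrix expression, including Tgfb1, Tgfb2 and Tgfb3, 0 were called in untreated kidneys, and in the average effect Smad7, an inhibitor of TGF-β signaling, fell by 0.31 (adjusted p = 0.0417 by edgeR). With the date as a covariate the average effects of Timp3 and Smad7 were 0.028 and 0.054. Without ND_B12 4 and D_C 1 the counts called in untreated kidneys were 6 higher and 1 lower of 17 components, and 5 higher and 1 lower of 12 receptors. They were 1 of 13 assembly genes, 2 lower of 10 protease genes and 1 lower of 10 regulators. In that fit 4.68% of all genes tested were called higher and 8.57% in either direction. Over 17 alternatives in untreated kidneys, Itga3 kept its call in 10, Bcam in 8, Hspg2 in 7 and Tinag in 6.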

How the data were processed

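Kidney RNA from 16 libraries was used, 4 in each labelled group. The authors sequenced paired 50-base reads, aligned them by STAR (genome GRCm39, annotation GENCODE vM35), and deposited estimated counts per gene and per transcript, made with StringTie and its prepDE script, as whole numbers. Strand was assigned to alignments from intron motifs, and whether the counts are by strand was not stated. The submitters' notes also name bcl2fastq 2.20.0, and versions of STAR and StringTie are not given in the sources used here. Columns were matched to libraries through the number at the end of each description, and 0 columns were left without a sample.

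From the deposited gene counts, edgeR 4.0.16 in R 4.3.3 was used, with TMM normalization, glmQLFit and glmQLFTest, a mean per labelled group and 12 residual degrees of freedom, on genes with at least 100 counts over all libraries. The deposited transcript counts were used for transcript shares and for levels by transcript length. CPM were computed with a prior count of 2 on the log2 scale. Correlations used 100000 permutations in numpy 2.4.6. Positions, exon lengths and upstream windows come from GRCm39 and GENCODE vM39. Dixon's criterion at 95% marked outlying libraries.

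The members and gene lists were chosen with earlier results of these data known. Named genes are the 10 members in each comparison, each other listed gene called in a comparison, and, for lists with none, the 2 with the smallest p-value in the average diabetes effect. A few genes that this rule or the likeness ranking would name, and 1 list, are not reported here. Over all 120 pairs of libraries log2 CPM correlated at 0.972 to 0.985, and no pair was a duplicate. Replicate numbers were not taken as pairs, since deviations from group means correlated at -0.183 to 0.168 between libraries of the same number.

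The alternatives were DESeq2 1.42.0, upper-quartile and median-of-ratios normalization, filters of at least 1 count and edgeR's filterByExpr, a date covariate, a replicate block, the compared groups alone, each library left out in turn, and ND_B12 4 and D_C 1 left out. Single genes were recomputed where their values are printed in the comparison. Transcript lengths and the list counts without both libraries were added after seeing the data. The tests were first tried on simulated counts.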

Additional observations from a re-analysis of the deposited data

Results flagged for a closer look

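Of the 40 sets of 4 libraries (10 genes in 4 groups), 2 held a library far from the other 3 by Dixon's criterion, where chance alone marks about 1 in 20. The normalized count of Col4a2 in D_B12 3 was 19149 against 16400 to 16687 in the other D_B12 libraries, with a gap of 0.896 of the range. The normalized count of Lamc1 in ND_B12 4 was 4939 against 4197 to 4231 in the other ND_B12 libraries, with a gap of 0.954 of the range. ND_B12 4 is 1 of the 2 libraries whose diabetes status differs between the labels and the listed means. With all libraries edgeR called no interaction of diabetes and B12 among the members. DESeq2 called Lamc1 and Lamb2 (adjusted p = 0.00193 and 0.0285), and edgeR called Lamc1 without ND_B12 4 and D_C 1 (adjusted p = 0.0437).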

How the results depend on the processing

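Members called are given first and all genes called second, for untreated kidneys, B12-treated kidneys, the average diabetes effect, B12 in diabetic kidneys, B12 in non-diabetic kidneys and the interaction in that order. With all libraries they were 3, 0, 2, 0, 0 and 0 members and 423, 209, 767, 0, 0 and 0 genes. DESeq2 called 6, 1, 5, 0, 0 and 2 members and 1603, 1146, 1832, 681, 6 and 923 genes. Without ND_B12 4 and D_C 1 they were 7, 0, 7, 0, 0 and 1 members and 2127, 695, 2531, 216, 0 and 87 genes. With the date as a covariate they were 0, 0, 0, 0, 0 and 1 members and 2, 29, 0, 204, 0 and 753 genes. With the replicate number as a block, where 5 of 16 libraries correlated best with one of their own number and the numbers were not taken as pairs, they were 1, 0, 0, 0, 0 and 0 members and 269, 25, 478, 0, 0 and 147 genes. A filter of at least 1 count, which tests more genes, gave 1, 0, 1, 0, 0 and 0 members and 63, 35, 427, 0, 0 and 0 genes. The compared groups alone gave 1 member (Lamc1) and 242 genes in untreated kidneys, and 1 gene for B12 in diabetic kidneys. Upper-quartile normalization gave 18 genes in B12-treated kidneys, and it, median-of-ratios factors and filterByExpr otherwise kept the counts within 1.5 times. Leaving out 1 library gave 0 to 7, 0 to 0, 0 to 6, 0 to 0, 0 to 0 and 0 to 1 members and 0 to 1552, 0 to 266, 235 to 1700, 0 to 69, 0 to 2 and 0 to 266 genes.

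Of 1267 values of single genes under alternatives, 893 kept their direction and side of the threshold, 322 lost the call, 30 gained it and 22 turned direction. With the date as a covariate these were Col4a1 in B12-treated kidneys (-0.057), Col4a2 (-0.030), Col4a3 (-0.011), Smad7 (0.054) and Timp3 (0.028) in the average effect, and Col4a6 (0.20) and Col4a2 (-0.255) for B12 in diabetic kidneys. Those without ND_B12 4 and D_C 1 were Lamc1 in B12-treated kidneys (0.0253) and Col4a2 for B12 in diabetic kidneys (-0.119). With 1 library left out Lamc1 in B12-treated kidneys ran from -0.0654 to 0.0216, and for B12 in diabetic kidneys Col4a1 ran from -0.129 to 0.16 and Col4a2 from -0.106 to 0.177. For the same comparison Col4a1 was 0.0117 with upper-quartile normalization and Col4a2 -0.000407 with at least 1 count. The others were Col4a4 in untreated kidneys without D_C 2, with a range of -0.184 to 0.028 when 1 library was left out, and Col4a4 in the average effect without ND_B12 1 (0.018), D_C 2 (0.035) or D_B12 3 (0.0095), with a range of -0.0707 to 0.0352. The correlation of Lama5 with Lamb2 was 0.417 with group means left in. The cause of these changes was not tested. The mean log2 ratio of Col4a3 over Col4a5 was lower in D_C than in ND_C by -0.457 both per kilobase and without lengths, and by -0.465 with transcript lengths. Of the members, Col4a6 rested on the fewest reads, 3836 over all libraries.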

Other observations

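One annotated transcript held over 98% of the reads of Col4a1, Col4a2, Col4a3, Col4a4, Col4a6, Lama5, Lamb2 and Lamc1, on average over the 16 libraries. Col4a5 was divided between Col4a5-202, with 75.2% on average and 53.9 to 99.2% in single libraries, and Col4a5-201, with 24.0% and 0 to 45.2%. The share of Col4a5-201 averaged 10.7% in ND_C and 36.4% in D_C, against 24.0% in ND_B12 and 25.0% in D_B12. Agrn was divided between Agrn-206, which encodes protein, with 76.3%, and Agrn-207, a transcript with a retained intron, with 20.2% and 9.96 to 27.6% in single libraries. These shares are StringTie estimates from 50-base reads and were not tested.

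Other cell types of the kidney differed with diabetes in single genes. Aqp2, the water channel of collecting duct principal cells, was higher in D_C than in ND_C by 1.69 ± 0.39 on the log2 scale (SE, adjusted p = 0.0436 by edgeR, n = 4 each) and by 1.14 on average (adjusted p = 0.0348). It was the only one called of 8 distal and collecting duct genes, of which 4 were above 0 in the average effect, with a median of -0.013 and with 2 higher and 2 lower at an unadjusted p-value below 0.05. In the average effect without ND_B12 4 and D_C 1, 3 of the 8 were called higher and 2 lower. In that fit 4.86% of all genes were called higher and 10.2% in either direction. With all libraries, 2 of 8 proximal tubule genes were called lower in the average effect. There 0.862% of all genes were called higher and 3.02% in either direction. The 2 were Slc34a1, a phosphate transporter, and Slc27a2, a fatty acid transporter, which fell by 0.25 and 0.26 (adjusted p = 0.0178 and 0.0378 by edgeR). Slc27a2 also fell by 0.44 between D_B12 and ND_B12 (adjusted p = 0.0418 by edgeR), where 0.823% of all genes were called in either direction. Of 8 fibroblast genes, which include collagens I and III, all 8 had a log2 fold change above 0 between D_C and ND_C. The median over all genes tested was -0.0034. At an unadjusted p-value below 0.05, 1 of the 8 was higher, where 9.31% of all genes were. Of the 8 fibroblast genes 1 was called, Pdgfra (0.51, adjusted p = 0.0408 by edgeR), where 0.937% of all genes tested were called higher. Of 5 smooth muscle genes 1 was called in the average effect, Tagln (0.41, adjusted p = 0.0476 by edgeR). Of 10 endothelial genes 2 were called in it, Egfl7 (0.25, 0.0307) and Eng (0.28, 0.0427). Called higher in this effect were 0.862% of all genes tested. Summed leukocyte markers were 77.78 to 101.7 CPM in ND_C and 72.05 to 80.64 CPM in D_C, and 0 of 8 were called. In the average effect 0 of the 8 were above 0, with a median of -0.32 and 5 lower at an unadjusted p-value below 0.05. With all libraries the lowest p-values on average were those of Csf1r (-0.30, adjusted p = 0.085) and Ptprc (-0.34, 0.112). Leaving out ND_B12 4 and D_C 1 gave 5 of the 8 called lower in the average effect. There 10.2% of all genes were called in either direction. In the same fit 1 of the 8 was called lower between D_C and ND_C, where 8.57% of all genes were called.

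In lists without a called gene the average effects with the smallest p-values were as follows, all by edgeR. Of the 12 podocyte genes 7 were above 0, with 1 higher and 1 lower at an unadjusted p-value below 0.05, and without ND_B12 4 and D_C 1, 2 were called higher and 1 lower. Among mesangial and pericyte genes they were Cspg4 (0.42, 0.052) and Notch3 (0.32, 0.0887). Adipocyte markers summed to 27.37 to 253.9 CPM in single libraries, with Fabp4 at 0.47 (adjusted p = 0.397) and Lep at -1.48 (0.536). Adrenal markers summed to 3.75 to 7.074 CPM and skeletal muscle markers to 0.3105 to 1.204 CPM, with Star at 0.23 (adjusted p = 0.267), Hsd3b1 at 0.0084 (0.994) and Mylpf at -0.32 (0.496).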
